A study of Saccharomyces cerevisiae with 9 samples.

Results

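The seripauperin (PAU), DAN and TIR genes of Saccharomyces cerevisiae encode mannoproteins of the yeast cell wall and their small relatives. The 32 names PAU1 to PAU24, DAN1 to DAN4 and TIR1 to TIR4 were looked up on the array by gene name and systematic name. They stood for 30 genes, because DAN2 and DAN3 are other names of PAU23 and PAU24 in the reference annotation. The group thus held 24 PAU genes, the 2 DAN genes DAN1 and DAN4, and 4 TIR genes, out of 6256 genes with a probe. Each of the 30 genes had 1 probe, and all 30 were among the 5947 genes tested. Of these, 29 were well above background on all 9 arrays. The exception was DAN1, which was well above background on 0 of 3 Hyb-8 arrays, 2 of 3 Sun224T-K arrays and 3 of 3 Sun049T-Z arrays.

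DAN and TIR proteins are anchored to the wall and carry long mannan chains on a serine-rich body. They are made mainly when oxygen or heme is scarce, and the TIR genes also respond to cold. In cells without oxygen they take the place of Cwp1 and Cwp2, the wall mannoproteins of aerated cells. PAU genes form the largest gene family of S. cerevisiae, code for short proteins related to the TIR proteins but poor in serine, and lie mostly near chromosome ends, where many copies are nearly identical. Several are known to be raised in alcoholic fermentation, at low temperature and without oxygen. The transcription factor Upc2 activates many of these genes when sterols run low, and Mot3, Rox1 and the corepressor Tup1-Cyc8 repress them in aerated cells.

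RNA came from a hybrid strain, Hyb-8, and from both parents, the acid-tolerant Sun224T-K and the thermotolerant Sun049T-Z, with 3 arrays per strain. Cells were taken after 3 h of fermentation at 38°C in closed bottles with a CO2 outlet, under conditions that the authors call microaerobic. The rich medium held 50 g/L xylose, and acetic acid (20 mM) and formic acid (15 mM) were added. Both parental strains are industrial diploids that carry genes for xylose use (XYL1, XYL2 and XKS1) with a clonNAT marker, and in each 1 copy of HO was replaced, by a KanMX marker in Sun224T-K and by a zeocin marker in Sun049T-Z. Hyb-8 was 1 clone, chosen for growth and fermentation under heat and acid from matings between spores of UV-treated cultures of both parents. The labels also give Sun224T-K and Hyb-8 as strains without PHO13 and Sun049T-Z as the control. Whether each array had a culture of its own is not given in the sources used here, so p-values measure the spread between these arrays, which may be technical. The RNA was of whole cultures, in which fewer cells with a transcript and less transcript per cell cannot be told apart. The parents differ in genetic background, and each gene was read by 1 probe. Whether its sequence or copy number differs between the strains was not tested, so a difference in signal may not be one in transcript.

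Levels are given as log2 intensity relative to the 75th percentile of the array, so that 1 unit is a 2-fold difference. A gene was called higher or lower in a strain when it differed by at least 2-fold with an adjusted p under 0.05 in limma. A level of 1 probe says nothing about the level of another. The intensity at the 75th percentile lay between 1044 and 4830, and 90.2% to 96.5% of spots were well above background. Both values were at their minimum on Sun049T-Z replicate 1, and its repeated spots differed more, with a median SD of 0.324 against 0.067 or less elsewhere. The arrays lay on 4 slides. Slides 2 and 3 held all 3 strains, while Sun049T-Z replicate 1 was alone on slide 1 and Hyb-8 replicate 2 alone on slide 4. With the slide as a fixed block, both lone arrays drop out of the strain differences, which then rest on slides 2 and 3. Such a fit, the values within slides and the fits without either lone array are therefore not separate checks. PHO13 had a log2 level of -1.72 ± 0.02 (SD, n = 3) on arrays with the label Hyb-8, -1.56 ± 0.31 with the label Sun224T-K and -3.78 ± 0.10 with the label Sun049T-Z. This goes against the label, and each strain name below stands for the arrays labelled with it.

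Against Sun049T-Z, 2 of the 30 genes were higher in Hyb-8, PAU20 and DAN4, and 4 were lower, PAU5, PAU7, TIR3 and DAN1. These are 6.67% and 13.3% of the members, where 9.37% of all genes tested were called higher and 9.1% lower (18.5% either way). In the comparison of Hyb-8 with Sun224T-K, 1 member was called higher, DAN4, and 1 lower, DAN1, against 0.858% and 0.387% of all genes (1.24% either way). Between the parental strains, 1 member was higher in Sun224T-K, PAU20, against 9.42% of all genes. The 5 members lower in Sun224T-K than in Sun049T-Z were PAU5, PAU7, TIR1, TIR3 and TIR4, or 16.7% of the members, where 10.7% of all genes were called lower and 20.1% either way. Each strain enters a pair of these comparisons, so their counts are not independent. In all, 8 of the 30 genes were called in at least 1 comparison and 22 in none, where 24.1% of all genes tested were called in at least 1. DAN1 passed the filter on dim probes only through Sun049T-Z, and without it 3 members were lower in Hyb-8 than in Sun049T-Z and 0 lower in Hyb-8 than in Sun224T-K.

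**Figure D1:**
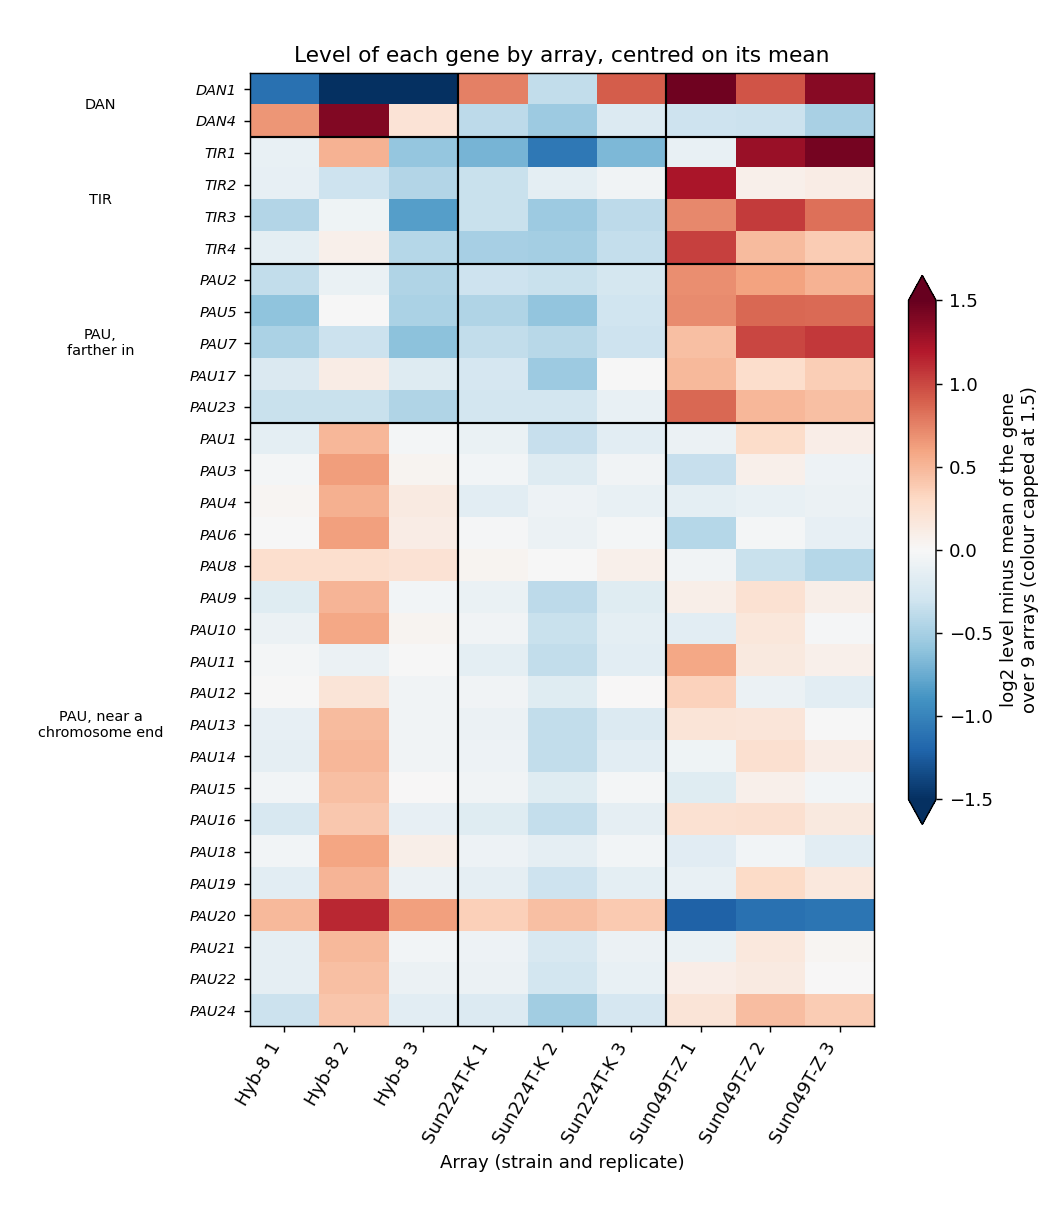
Each row is a gene and each column an array, and the colour is the log2 level minus the mean of the gene over the 9 arrays, capped at 1.5. PAU genes near a chromosome end have at most 10 genes between them and it. The TIR genes and the 5 PAU genes farther in were highest in Sun049T-Z except for TIR1 on replicate 1, PAU20 was low there, and most PAU genes near an end were highest on Hyb-8 replicate 2.

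The median log2 difference of the 30 genes between Sun224T-K and Sun049T-Z was -0.32, where the median of all genes tested was 0.00. Every Sun224T-K array lay below every Sun049T-Z array for 19 of the 30 genes and above for 2, where 32.8% of all genes lay below and 33.4% above. Hyb-8 and Sun049T-Z had a median difference of -0.03, against 0.03 for all genes, and the members' median was -0.23 without Hyb-8 replicate 2 and -0.27 with the slide as a fixed block. Their arrays did not overlap for 16 members, of which 6 were higher in Hyb-8 (34.1% of all genes) and 10 lower (31.6% of all genes). Hyb-8 lay above Sun224T-K, with a median difference of 0.26 against 0.01 for all genes. There, 9 members were higher on every Hyb-8 array and 2 lower, against 15.5% and 14.9% of all genes. Without Hyb-8 replicate 2 this median was 0.09.

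In the gene order of the reference, the members lay on all 16 chromosomes, and 20 of them had at most 10 genes between them and the nearer chromosome end. These were 19 PAU genes and DAN4, which was at the limit with 10, while DAN1, next to it, had 11. The other 9 farther in were PAU2, PAU5, PAU7, PAU17, PAU23 and the 4 TIR genes, with between 14 and 176 genes to an end. This limit was chosen with the values known, so the contrast between both sets is a description without a test. All 9 TIR and PAU genes farther in had a negative log2 difference in Sun224T-K against Sun049T-Z. For all 9 the arrays did not overlap, where 32.8% of all genes tested had every Sun224T-K array lower. In Hyb-8 against Sun049T-Z all 9 were negative too. Of these 9, 8 had arrays that did not overlap, where 31.6% of all genes tested had every Hyb-8 array lower.

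PAU7 lies next to DFP1 on chromosome I and is a seripauperin known to be raised without oxygen. It had log2 levels of -2.04, -1.90 and -2.19 in Hyb-8, -1.95, -1.99 and -1.88 in Sun224T-K, and -1.13, -0.57 and -0.52 in Sun049T-Z. All 3 Sun049T-Z arrays stood above the other 6, and Hyb-8 and Sun224T-K overlapped. Relative to Sun049T-Z, PAU7 was 2.47-fold lower in Hyb-8 (log2 difference -1.31, standard error 0.16, adjusted p = 0.000139 from limma) and 2.30-fold lower in Sun224T-K (-1.20, adjusted p = 0.000226 from limma). Between Hyb-8 and Sun224T-K the log2 difference was -0.10 (adjusted p = 0.751 from limma).

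PAU5 (chromosome VI) had log2 levels of -1.64, -1.05 and -1.51 in Hyb-8, -1.48, -1.63 and -1.34 in Sun224T-K, and -0.32, -0.17 and -0.18 in Sun049T-Z. Here too the Sun049T-Z arrays stood apart, with Hyb-8 replicate 2 the nearest to them. PAU5 was 2.26-fold below Sun049T-Z in Hyb-8 (-1.17, adjusted p = 0.000216 from limma) and 2.39-fold below it in Sun224T-K (-1.26, adjusted p = 0.000137 from limma). In Hyb-8 against Sun224T-K it differed by 0.09 (adjusted p = 0.796 from limma). Within slides 2 and 3, the log2 differences of PAU5 from Sun049T-Z were -1.47 and -1.33 in Hyb-8 and -1.38 and -1.16 in Sun224T-K. Those of PAU7 were -1.48 and -1.67 in Hyb-8 and -1.40 and -1.37 in Sun224T-K, so both genes were lower than in Sun049T-Z within each slide.

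The other PAU genes farther in stayed under the 2-fold threshold with the same sign. In Hyb-8 against Sun049T-Z, the log2 difference was -0.91 for PAU2, -0.98 for PAU23 and -0.47 for PAU17 (adjusted p = 0.00014, 0.000176 and 0.0271 from limma). In Sun224T-K against Sun049T-Z it was -0.91, -0.83 and -0.64 for the same genes in that order (adjusted p = 0.00014, 0.000464 and 0.00621 from limma). For all 3 genes every array of Hyb-8 and of Sun224T-K lay below every Sun049T-Z array. PAU2 was called without Hyb-8 replicate 2 (-1.02), and PAU23, which is also known as DAN2, was called when Sun049T-Z replicate 2 or replicate 3 was left out (-1.03 and -1.05). Hyb-8 and Sun224T-K differed by 0.17 or less for each of the 5 PAU genes farther in, in either direction.

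PAU20, near an end of chromosome XV, ran the other way. Its log2 levels were -2.13, -1.49 and -2.00 in Hyb-8, -2.26, -2.16 and -2.23 in Sun224T-K, and -3.83, -3.73 and -3.71 in Sun049T-Z. The Sun049T-Z arrays lay well below the other 6, and each Hyb-8 array was above each Sun224T-K array. Relative to Sun049T-Z, PAU20 was 3.70-fold higher in Hyb-8 (1.89, standard error 0.16, adjusted p = 1.1e-05 from limma) and 2.91-fold higher in the parent Sun224T-K (1.54, adjusted p = 3.58e-05 from limma). Against Sun224T-K, Hyb-8 differed by 0.35 (adjusted p = 0.225 from limma). Within slides 2 and 3 the log2 differences of PAU20 from Sun049T-Z were 1.61 and 1.71 in Hyb-8 and 1.52 and 1.48 in Sun224T-K.

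**Figure D2:**
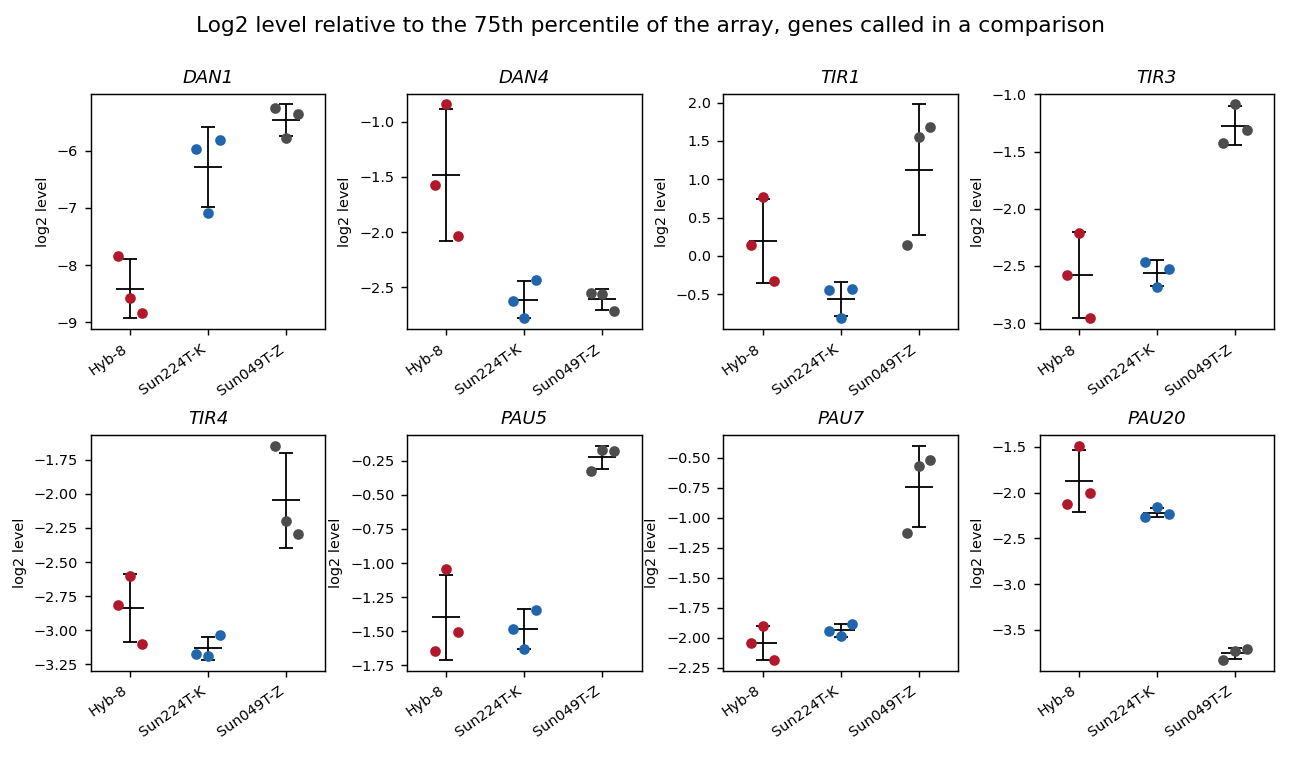
Each panel is a gene called in at least 1 comparison, with the 3 arrays of each strain as points and the mean ± SD in black, on the log2 scale relative to the 75th percentile of the array (the axes differ between panels and do not start at 0). In Hyb-8 and Sun224T-K, PAU5, PAU7 and TIR3 lay together below Sun049T-Z and PAU20 above it, while DAN4 was high and DAN1 low in Hyb-8.

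Calls were frequent in the 306 genes tested within 10 genes of a chromosome end. Relative to Sun049T-Z, 32.4% of them passed as higher and 18.6% as lower in Hyb-8. In Sun224T-K these shares were 30.1% and 19.3%. Between Hyb-8 and Sun224T-K they were 3.59% and 1.96%. Of the 19 PAU genes near an end, only PAU20 was called, a contrast that was not tested. The other 18 were called in none of the comparisons. Their log2 differences lay between -0.36 and 0.51 in Hyb-8 against Sun049T-Z, between 0.12 and 0.35 in Hyb-8 against Sun224T-K, and between -0.67 and 0.30 in Sun224T-K against Sun049T-Z. Standard errors were between 0.11 and 0.19. In limma, adjusted p was under 0.05 for PAU4 (0.34) and PAU8 (0.51) in Hyb-8 against Sun049T-Z, and for PAU8 (0.30), PAU11 (-0.49), PAU16 (-0.43) and PAU24 (-0.67) in Sun224T-K against Sun049T-Z. PAU8, the outermost gene on its arm of chromosome I, had similar levels on the 3 Hyb-8 arrays, -1.55, -1.55 and -1.58. It stood at -1.76, -1.81 and -1.72 in Sun224T-K and -1.84, -2.13 and -2.23 in Sun049T-Z. The strains did not overlap for PAU8, with Hyb-8 highest and Sun049T-Z lowest.

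TIR1 (chromosome V) encodes a mannoprotein that is needed for growth without oxygen. Its log2 levels were 0.14, 0.77 and -0.32 in Hyb-8, -0.44, -0.82 and -0.43 in Sun224T-K, and 0.14, 1.55 and 1.68 in Sun049T-Z. The first array of Sun049T-Z, the one with the widest spread between spots, lay among the Hyb-8 arrays and apart from the other Sun049T-Z arrays. In Sun224T-K, TIR1 was 3.22-fold below its Sun049T-Z level (-1.69, standard error 0.40, adjusted p = 0.00574 from limma). In Hyb-8 against Sun049T-Z it was not called (-0.93, adjusted p = 0.0758 from limma), but it was called without Sun049T-Z replicate 1 (-1.42) and without Hyb-8 replicate 2 (-1.22), and with the slide as a fixed block (-1.71). Every Hyb-8 array was above every Sun224T-K array, with a log2 difference of 0.76 that did not pass (adjusted p = 0.309 from limma). Within slides 2 and 3 TIR1 differed from Sun049T-Z by -1.41 and -2.01 in Hyb-8 and by -2.18 and -2.11 in Sun224T-K.

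TIR3 (chromosome IX), which is also needed for anaerobic growth, separated the strains more evenly. It had log2 levels of -2.58, -2.21 and -2.96 in Hyb-8, -2.47, -2.69 and -2.53 in Sun224T-K, and -1.42, -1.09 and -1.31 in Sun049T-Z. All Sun049T-Z arrays were above the other 6, and Hyb-8 and Sun224T-K overlapped. TIR3 was 2.48-fold below Sun049T-Z in Hyb-8 (-1.31, adjusted p = 0.00026 from limma) and 2.44-fold below it in Sun224T-K (-1.29, adjusted p = 0.000284 from limma). Hyb-8 and Sun224T-K differed by -0.02 (adjusted p = 0.961 from limma).

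TIR4 and TIR2 are neighbours on chromosome XV, with AUS1, which encodes a sterol importer, next to TIR2. TIR4 had log2 levels of -2.82, -2.60 and -3.10 in Hyb-8, -3.17, -3.19 and -3.04 in Sun224T-K, and -1.65, -2.20 and -2.30 in Sun049T-Z. In Sun224T-K it was 2.12-fold below its Sun049T-Z level (-1.08, adjusted p = 0.000881 from limma), which fell under the 2-fold threshold without Sun049T-Z replicate 1 (-0.88) and with the slide as a fixed block (-0.89). In Hyb-8 against Sun049T-Z the log2 difference was -0.79 (adjusted p = 0.00528 from limma). TIR4 was thus highest in Sun049T-Z, with no overlap, whether called or not.

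TIR2, also known as a cold-shock gene, had log2 levels of 0.17, -0.01 and -0.14 in Hyb-8, -0.03, 0.16 and 0.24 in Sun224T-K, and 1.53, 0.37 and 0.41 in Sun049T-Z. Replicate 1 of Sun049T-Z was far above the other arrays here, whereas it was the low one for TIR1. TIR2 was called in no comparison, with log2 differences of -0.76 in Hyb-8 (adjusted p = 0.0376 from limma) and -0.65 in Sun224T-K (adjusted p = 0.0674 from limma) against Sun049T-Z. AUS1 went the other way from its TIR neighbours, with log2 differences of 1.00 (just under 2-fold, adjusted p = 8.56e-05 from limma) and 0.74 against Sun049T-Z in Hyb-8 and Sun224T-K.

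DAN1 and DAN4 are adjacent on chromosome X, and of the 30 genes only these were called between Hyb-8 and Sun224T-K, in opposite directions. DAN4 had log2 levels of -1.58, -0.84 and -2.03 in Hyb-8, -2.63, -2.77 and -2.44 in Sun224T-K, and -2.55, -2.56 and -2.72 in Sun049T-Z. Every Hyb-8 array was above the 6 parental arrays, but the Hyb-8 arrays were spread over more than 2-fold, with replicate 2 the highest. Relative to Sun224T-K, DAN4 in Hyb-8 was 2.19-fold higher (1.13, standard error 0.25, adjusted p = 0.0372 from limma), and relative to Sun049T-Z it was 2.18-fold higher (1.12, adjusted p = 0.00424 from limma). Sun224T-K and Sun049T-Z differed by less than 0.01 on the log2 scale (adjusted p = 0.991 from limma). Within slide 2 the log2 difference of DAN4 in Hyb-8 was 1.12 from Sun224T-K and 0.98 from Sun049T-Z, and within slide 3 it was 0.40 and 0.68. With the slide as a fixed block DAN4 was not called against Sun224T-K (0.82) or Sun049T-Z (0.83), nor without Hyb-8 replicate 2 (0.81 and 0.80). Leaving out 1 array at a time, the increase over Sun224T-K was called in 2 of 9 fits, those without Sun049T-Z replicate 1 or Hyb-8 replicate 3, with log2 differences between 0.81 and 1.40 over the 9.

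DAN1 was dim. Its log2 levels were -7.84, -8.57 and -8.84 in Hyb-8, -5.97, -7.09 and -5.81 in Sun224T-K, and -5.26, -5.78 and -5.36 in Sun049T-Z. All Hyb-8 arrays were below all parental arrays, and Sun224T-K replicate 2, the array of that strain not well above background for DAN1, was the lowest of the parental arrays. DAN1 entered the test only through Sun049T-Z, where it was highest, and in Hyb-8 all 3 arrays failed the background criterion, so its differences are given as bounds that depend on how background is treated. For each Hyb-8 array the lowest signal well above background was taken, or the DAN1 signal where that was higher. With the background subtraction of the scanner files, DAN1 in Hyb-8 was then at least 1.93-fold lower than in Sun224T-K. Relative to Sun049T-Z the bound was at least 3.42-fold lower. These bounds use all 3 arrays of each parent, of which 2 in Sun224T-K were well above background. The fitted log2 differences, which rest on signal near background in Hyb-8, were -2.13 (adjusted p = 0.0125 from limma) and -2.95 (adjusted p = 0.000111 from limma). With the normexp background correction the log2 differences were 0.02 against Sun224T-K and -0.71 against Sun049T-Z, and neither was called. Both were smaller than the bounds, which therefore did not hold under that correction. The call against Sun224T-K was also lost when slide entered the fit as a fixed term (-2.07), or when Hyb-8 replicate 2 (-2.05), Hyb-8 replicate 3 (-1.91) or Sun224T-K replicate 3 (-1.89) was left out. Within slides 2 and 3 DAN1 differed by -1.31 and -3.03 between Hyb-8 and Sun224T-K, and by -2.06 and -3.48 between Hyb-8 and Sun049T-Z. In Sun224T-K against Sun049T-Z DAN1 was not called (-0.83, adjusted p = 0.0718 from limma).

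**Figure D3:**
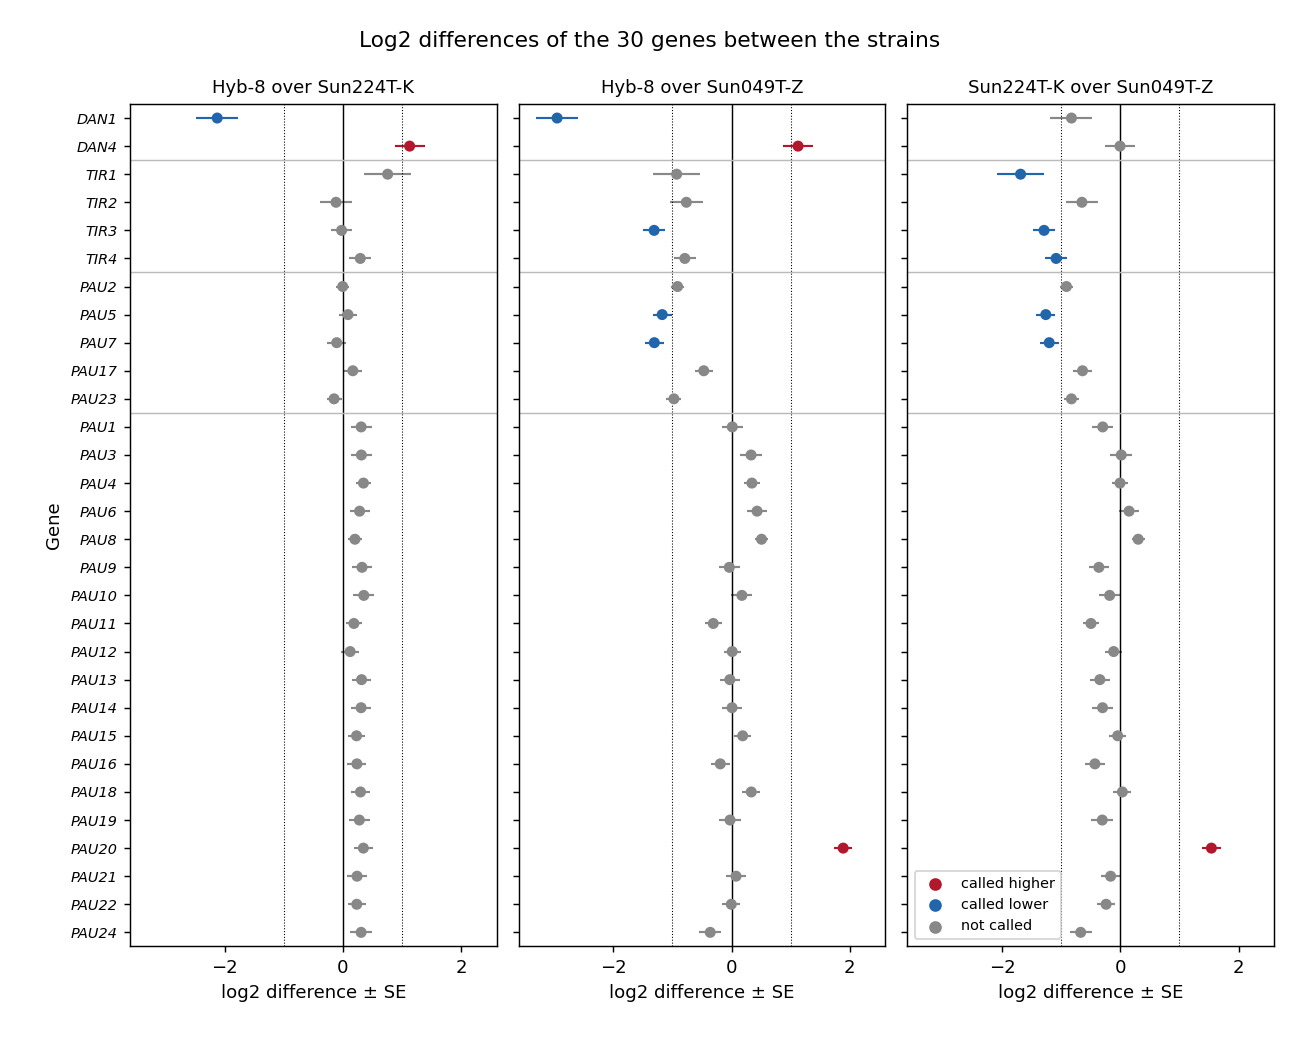
Points are the log2 difference of each of the 30 genes in a comparison and bars its standard error, in the order DAN, TIR, PAU farther in and PAU near a chromosome end, and the dotted lines mark 2-fold. The 19 PAU genes near an end all lay between 0.12 and 0.35 in Hyb-8 over Sun224T-K, whereas the 5 farther in lay between -0.15 and 0.17.

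Hyb-8 was set between its parents for the 6 members called between Sun224T-K and Sun049T-Z, on a scale that puts the Sun224T-K mean at 1 and the Sun049T-Z mean at 0. PAU5 lay at 0.93, PAU7 at 1.09, TIR3 at 1.02 and PAU20 at 1.22, close to or beyond Sun224T-K. TIR4 lay at 0.73 and TIR1 at 0.55. All 6 were nearer to Sun224T-K than to Sun049T-Z, as were 91.9% of all 1194 genes with a call between the parents. None of the 6 was called between Hyb-8 and Sun224T-K, against 3.18% of those 1194 genes. The 6 members were thus near the background.

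Hyb-8 replicate 2, the array alone on slide 4, had high levels of most PAU genes. Against the mean of the other Hyb-8 arrays it was higher for 23 of the 24 PAU genes, with a median log2 difference of 0.56. All genes tested had a median of -0.002 on this array, and the 306 genes tested within 10 genes of a chromosome end had 0.03. For the 19 PAU genes near an end the median was 0.57, and 16 of them exceeded 0.3. So did 14.2% of all genes and 20.3% of the 306 genes near an end. The 5 PAU genes farther in had a median of 0.32 and the 4 TIR genes 0.46. DAN4 differed by 0.96 on this array and DAN1 by -0.23. This array was the highest of all 9 for 15 of the 19 PAU genes near an end and for 0 of the 5 farther in. The 5 farther in were higher on every Sun049T-Z array than on any Hyb-8 array, so this 0 reflects the strains. Among the Hyb-8 arrays alone, replicate 2 was highest for 17 of the 19, for all 5 farther in and for 3 of the 4 TIR genes. The share of all genes for which it was highest was not counted, and nearly identical copies count here as separate genes. Without Hyb-8 replicate 2, the median of the 19 in Hyb-8 over Sun224T-K was 0.11 in place of 0.30, with values between 0.04 and 0.21. The part of the slide in this was not tested, because slide 4 held no other array.

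**Figure D4:**
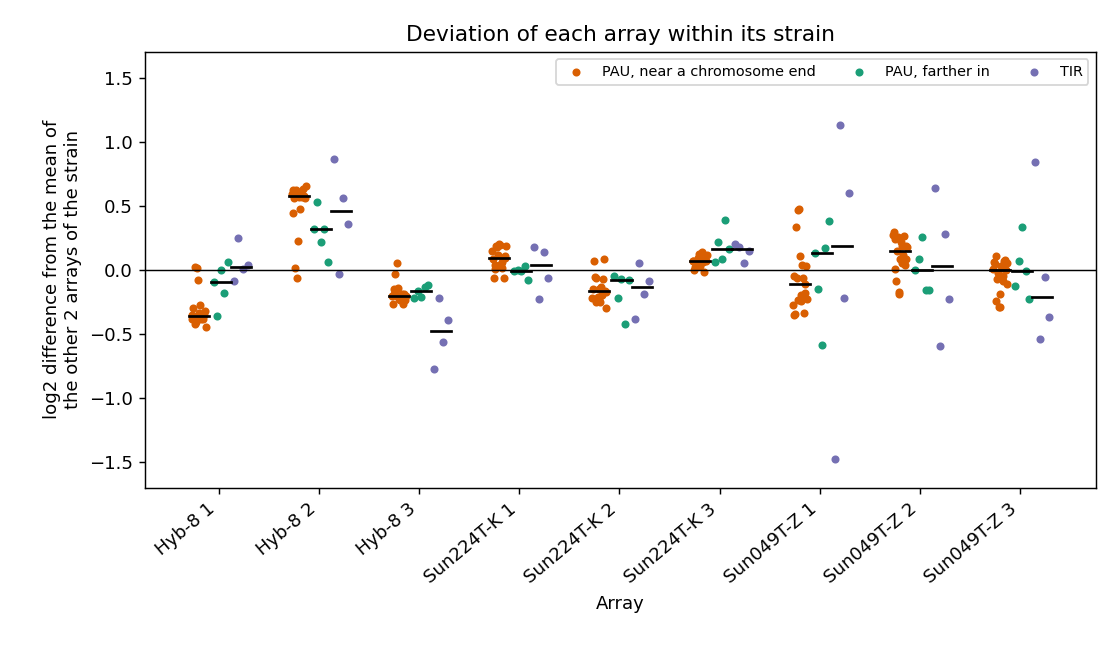
Each point is a gene and its height the log2 difference of an array from the mean of the other arrays of the same strain, with black bars at the medians. On Hyb-8 replicate 2 16 of the 19 PAU genes near a chromosome end lay above 0.3, the others being PAU11 (-0.06), PAU8 (0.01) and PAU12 (0.23), and the 4 TIR genes spread most on Sun049T-Z replicate 1, between -1.48 and 1.13.

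Some PAU genes near chromosome ends had nearly the same profile over the arrays. After each gene was centred on its own mean, PAU1 and PAU14 were within 0.035 of each other on all 9 arrays, and 7 of the 435 pairs of members were within 0.1. These 7 pairs were PAU1, PAU14 and PAU19 with each other, PAU4 with PAU18, PAU15 with PAU21, PAU10 with PAU21, and PAU13 with PAU22. PAU4 and PAU18 lie at opposite ends of chromosome XII, while PAU1 (X), PAU14 (IX) and PAU19 (XIII) are on different chromosomes. Over the 9 arrays, which fall into 3 strains and share slides, the median Pearson correlation was 0.65 among PAU genes near an end (171 pairs, between -0.72 and 0.996, with 39 above 0.9), 0.91 among the 5 farther in (10 pairs) and 0.26 between both sets (95 pairs). TIR genes had a median of 0.73 over 6 pairs, and DAN1 and DAN4 had -0.75. PAU copies are known to be nearly identical in sequence, and which probes can bind the RNA of more than 1 copy was not tested, so values of these genes may not be separate measurements.

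The genes on either side of the members were examined to see whether the neighbourhood moved with them. Of 53 such genes on the array, 48 were tested. In Hyb-8 against Sun049T-Z 19 of them were called higher (39.6%) and 9 lower (18.8%), against 9.37% and 9.1% of all genes tested. In Sun224T-K against Sun049T-Z 18 were higher (37.5%) and 9 lower (18.8%), against 9.42% and 10.7%. Among all 306 genes tested within 10 genes of an end, Hyb-8 had 99 called higher (32.4%) and 57 lower (18.6%) than Sun049T-Z. Sun224T-K had 92 of the 306 higher (30.1%) and 59 lower (19.3%). The genes named next were chosen after their values were seen. PAU12 had a log2 difference of 0.01 in Hyb-8 against Sun049T-Z, while its neighbour COS6 had 4.18 (adjusted p = 2.18e-05 from limma). PAU4 had 0.34 beside YLR460C with -5.18 and YLR462W with 3.35. DFP1, beside PAU7, differed in the same direction as PAU7, by -1.37 in Hyb-8 and -1.25 in Sun224T-K against Sun049T-Z.

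Between Hyb-8 and Sun224T-K, 4 neighbours were called, or 2.08% of those tested as higher in Hyb-8 and 6.25% as lower. The shares were 0.858% and 0.387% of all genes tested, and 3.59% and 1.96% of the genes tested near an end. ARN2, a siderophore transporter gene beside PAU13, was higher in Hyb-8 (1.84), and YJR149W beside DAN1 (-2.05), VTH2 beside PAU1 (-1.11) and VTH1 beside PAU14 (-1.16) were lower. The PAU genes beside them, PAU13 (0.32), PAU1 (0.31) and PAU14 (0.31), were not called. DAN1, beside YJR149W, was called lower like its neighbour (-2.13), on a signal near background in Hyb-8.

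The regulators of these genes were followed in a list of 9. ROX1, the repressor of genes used without oxygen, was called higher in Hyb-8 (1.74, adjusted p = 0.000132 from limma) and in Sun224T-K (1.71, adjusted p = 0.000141 from limma) than in Sun049T-Z. Its log2 levels were 1.69, 1.03 and 1.29 in Hyb-8, 1.05, 1.74 and 1.14 in Sun224T-K, and -0.45, -0.23 and -0.52 in Sun049T-Z, so that Sun049T-Z stood apart. The other 8 were not called in any comparison. Thus 11.1% of the list was called higher than Sun049T-Z in each strain, against 9.37% of all genes tested in Hyb-8 and 9.42% in Sun224T-K. UPC2 had log2 differences of -0.18 in Hyb-8 (adjusted p = 0.206 from limma) and -0.61 in Sun224T-K (adjusted p = 0.00156 from limma) against Sun049T-Z, and 0.43 between Hyb-8 and Sun224T-K (adjusted p = 0.063 from limma). MOT3 differed by 0.15, -0.13 and 0.27 in the same comparisons, with no adjusted p under 0.05. CYC8, which codes for a subunit of the Tup1-Cyc8 corepressor, had -0.79 in both Hyb-8 and Sun224T-K against Sun049T-Z (adjusted p = 0.000905 and 0.000881 from limma), the opposite sign to ROX1. TUP1, for the other subunit, had 0.25 in Hyb-8 (adjusted p = 0.0573 from limma) and 0.45 in Sun224T-K (adjusted p = 0.00405 from limma). Against Sun049T-Z, ECM22 and HDA1 were above 0 in both strains (0.44 and 0.58 in Hyb-8, 0.39 and 0.47 in Sun224T-K), and HAP1 and SUT1 below 0 (-0.29 and -0.51 in Hyb-8, -0.57 and -0.55 in Sun224T-K).

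**Figure D5:**
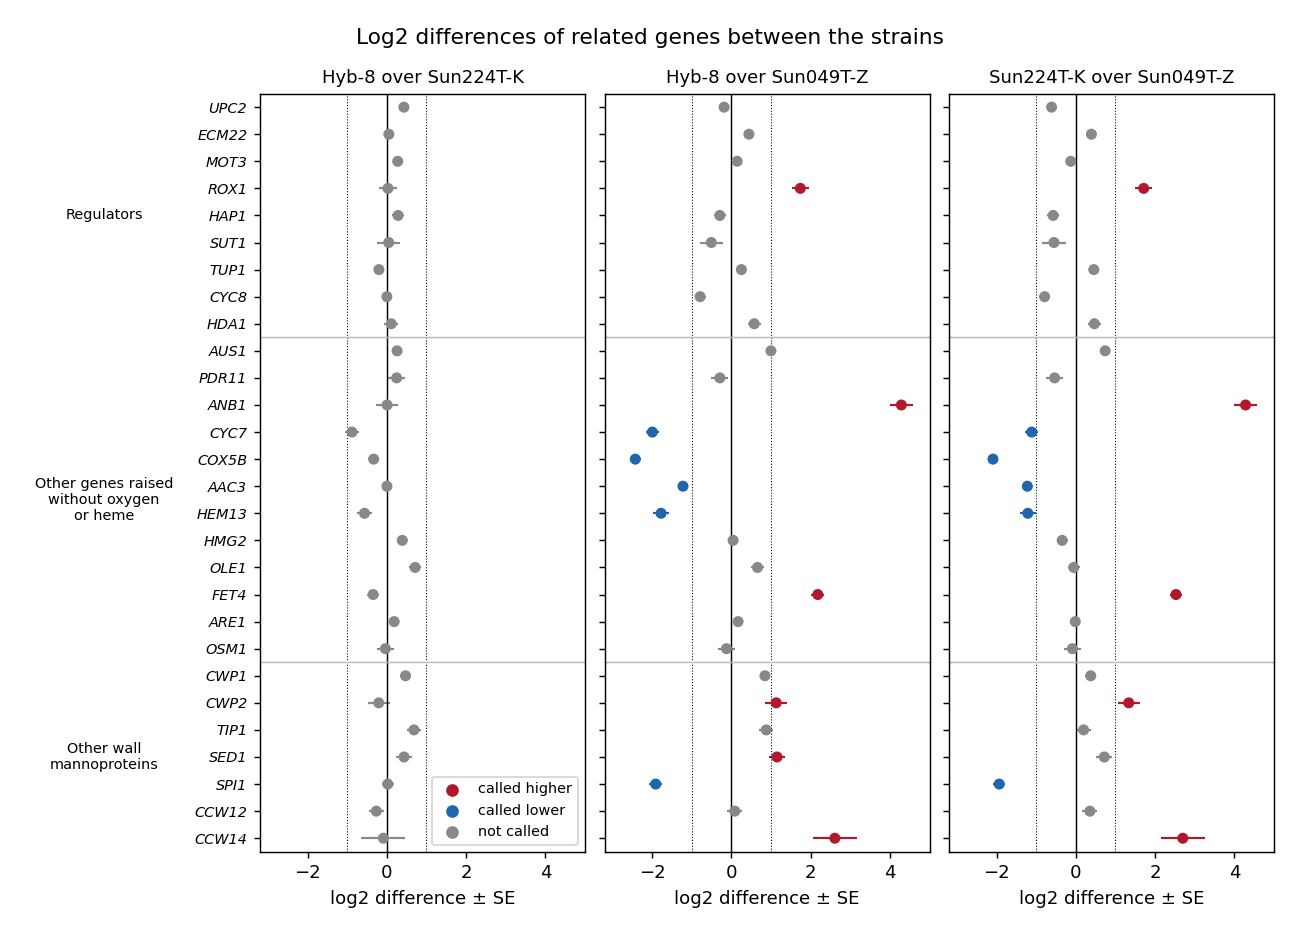
Points are log2 differences and bars standard errors of the regulators, of other genes raised without oxygen or heme and of other wall mannoproteins, in the 3 comparisons, with dotted lines at 2-fold. None was called between Hyb-8 and Sun224T-K, where 1.24% of all genes tested were. Against Sun049T-Z both strains had ANB1, FET4 and ROX1 above and COX5B, CYC7, HEM13, AAC3 and SPI1 below.

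In a list of 12 other genes known to be raised without oxygen or heme, Hyb-8 had 2 called higher and 4 called lower than Sun049T-Z, and the counts were the same in Sun224T-K against Sun049T-Z. The list had a median of -0.04 in Hyb-8 and -0.22 in Sun224T-K against Sun049T-Z. ANB1, which codes for the translation factor isoform of oxygen-poor cells, had log2 levels of 2.49, 2.02 and 2.46 in Hyb-8, 2.32, 2.24 and 2.39 in Sun224T-K, and -2.72, -1.68 and -1.50 in Sun049T-Z. It was 19.6-fold higher in Hyb-8 and 19.5-fold higher in Sun224T-K than in Sun049T-Z (adjusted p = 2.95e-06 and 2.92e-06 from limma). FET4, a low-affinity iron transporter gene, was 4.54-fold and 5.76-fold higher. Respiratory and heme genes of the list had the other sign. COX5B, a cytochrome c oxidase subunit gene, was 5.36-fold lower in Hyb-8 and 4.26-fold lower in Sun224T-K, and CYC7, a cytochrome c gene, 3.98-fold and 2.16-fold lower. HEM13, of heme synthesis, was 3.42-fold and 2.31-fold lower, and AAC3, the ADP/ATP carrier of oxygen-poor cells, was 2.33-fold lower in each. The AAC3 call in Hyb-8 was lost with the normexp background (-0.84). When Sun224T-K replicate 2 was left out, CYC7 was not called in Sun224T-K against Sun049T-Z (-0.97), but Hyb-8 was then called lower than Sun224T-K (-1.02). Genes known to answer to low oxygen thus had calls in both directions against Sun049T-Z, as the members had. The members as a set had a median of -0.03 in Hyb-8 and -0.32 in Sun224T-K against Sun049T-Z, where all genes tested had 0.03 and 0.00.

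Of 7 other wall mannoprotein genes, Hyb-8 had 3 called higher and 1 called lower than Sun049T-Z, and Sun224T-K had 2 higher and 1 lower. These are 42.9% and 14.3% of the list in Hyb-8, against 9.37% and 9.1% of all genes tested. In Sun224T-K they are 28.6% and 14.3%, against 9.42% and 10.7%. CWP2, a main wall protein of aerated cells, was 2.19-fold higher in Hyb-8 and 2.52-fold higher in Sun224T-K, and SED1, a stress-related wall protein gene, was 2.22-fold higher in Hyb-8. In Hyb-8, the SED1 call was lost with quantile normalization (0.67) and the CWP2 call without Sun049T-Z replicate 3 (0.96). SPI1, a gene related to SED1, was 3.75-fold lower in Hyb-8 and 3.82-fold lower in Sun224T-K. CCW14, of the inner wall layer, had log2 levels of 3.87, 3.50 and 3.49 in Hyb-8, 3.95, 3.51 and 3.66 in Sun224T-K, and -0.62, 1.98 and 1.67 in Sun049T-Z. The parental Sun049T-Z arrays disagreed here, with replicate 1 far below the others. CCW14 differed by 2.61 in Hyb-8 and 2.70 in Sun224T-K against Sun049T-Z, and by 1.80 and 1.89 without that array, and was called either way. Neither this list nor the regulators nor the other genes raised without oxygen had a call between Hyb-8 and Sun224T-K with all 9 arrays. Of all genes tested, 1.24% were called in that comparison, so the absence of calls in such short lists is near the background.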

How the data were processed

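Transcripts were measured on 9 Agilent 1-colour arrays of 3 strains. For each array the authors deposited a scanner file with background-subtracted intensity values from Agilent Feature Extraction 10.1.1.1, and a table of log2 values made in GeneSpring. Set against the scanner values, this deposited log2 table is centred on the median of each probe (column medians 0 to 0.082), and it was used as an alternative.

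The processed intensity of each of the 43792 spots was put on the log2 scale and shifted to the 75th percentile of the array, spots that the scanner software marked as outliers were dropped, and the 7 spots per probe were averaged. Probes well above background on every array of at least 1 strain were tested. limma 3.58.1 in R 4.3.3 (lmFit, eBayes) fitted the strain over all arrays, with Benjamini-Hochberg adjustment over all genes tested, and was tested on simulated data. An exact permutation test of 3 against 3 arrays cannot give a two-sided p below 0.1 and was not used. Names, chromosomes and gene order came from the R64 RefSeq annotation (5756 probes matched, 500 kept the name in the files). The genome build behind the array and the probe sequences are not given in the sources used here. The alternatives covered background correction, normalization, the filter on dim probes, outlier spots, the kind of moderation, which arrays entered the fit, replicate number or slide as a block, thresholds and leaving out each array. All 30 members are accounted for, those called in full. The members, the lists of related genes and the tests were chosen with earlier results of these data known, so nothing here is independent support for them. Precision is limited by having 3 arrays per strain and, for DAN1, by a dim signal.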

Additional observations from a re-analysis of the deposited data

How the results depend on the processing

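The 30 genes were recomputed under 23 alternatives, 9 of which left out an array. The calls of PAU5, PAU7, PAU20 and TIR3 against Sun049T-Z held in both strains under all of them. The alternatives with a fold change of 1.5 or adjusted p alone only loosen the rule and could not remove a call. Against Sun049T-Z, 1 member was called higher in Hyb-8 in place of 2 with the normexp background and with slide as a fixed block, where DAN4 was 0.96 and 0.83 on the log2 scale, and 4 with adjusted p alone. Members called lower there were 8 in place of 4 at a fold change of 1.5 and 9 with adjusted p alone. Against Sun224T-K, 0 members were called higher in Hyb-8 in place of 1 with each pair of strains fitted alone, with the replicate block and with slide as a fixed block, and 0 were called lower in place of 1 with the normexp background, with slide as a fixed block and when only probes above background on all 9 arrays were kept, which removes DAN1. The sign of DAN1 in Hyb-8 against Sun224T-K turned to 0.019 with the normexp background. Between the parental strains 2 members were higher in Sun224T-K in place of 1 with adjusted p alone, and 9 and 11 lower in place of 5 at a fold change of 1.5 and with adjusted p alone. TIR4 in Sun224T-K against Sun049T-Z was under the 2-fold threshold with the normexp background (-0.97) and with outlier spots kept (-0.92), and PAU23 in Hyb-8 against Sun049T-Z was above it with quantile normalization (-1.03), the median shift (-1.03) and the authors' table (-1.01), and also with outlier spots kept.

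Leaving out 1 array at a time, members called in Hyb-8 against Sun049T-Z numbered 1 to 2 higher and 4 to 6 lower, in Hyb-8 against Sun224T-K 0 to 1 higher and 0 to 1 lower, and in Sun224T-K against Sun049T-Z 1 higher and 4 to 6 lower. DAN1 in Sun224T-K against Sun049T-Z was called without Sun224T-K replicate 3 (-1.06).

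Same-numbered arrays had deviations that correlated between -0.25 and 0.15. This cannot show whether they share a batch, and the arrays numbered 3 all lay on slide 3. The replicate block left 0 members in place of 1 called higher in the comparison of Hyb-8 with Sun224T-K, moved that count over all genes to 40 in place of 51, and it changed no other call of a member.

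Over all genes, 51 were called higher in Hyb-8 relative to Sun224T-K. It was 34 with the normexp background, with 14 lower in place of 23, and 88, 31 and 29 without Sun224T-K replicate 1, Sun224T-K replicate 2 and Hyb-8 replicate 3. A fold change of 1.5 gave 132 higher and 90 lower, and adjusted p alone 180 and 146. In Hyb-8 against Sun049T-Z these thresholds gave 1184 higher and 1134 lower, and 1709 and 1624, in place of 557 and 541, and in Sun224T-K against Sun049T-Z 1210 and 1187, and 1732 and 1731, in place of 560 and 634. With the normexp background 371 genes were higher in Sun224T-K than in Sun049T-Z. The cause of these shifts was not tested beyond the thresholds and arrays named.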

Other observations

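For each of the 8 members called, the 2 genes outside the group with the highest Pearson correlation over the 9 arrays were taken as a description. The 9 arrays fall into 3 strains, so any gene that separates the strains alike ranks high. PAU5 was followed most closely by ECM4 and MXR2 (r = 0.995 each), PAU7 by SNZ2 (0.993) and YER186C (0.992), and PAU20 by HNT3 and SOM1 (0.993 each). TIR1 was closest to MAS1 and ALD3 (0.977 and 0.976), TIR3 to NRD1 and CPT1 (0.988 and 0.985), and TIR4 to SIP2 and PPZ2 (0.977 and 0.973). The values were lower for DAN1, with MIL1 and BIO4 (0.966 and 0.965), and for DAN4, with PRE6 and VMR1 (0.941 and 0.940).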
